A study of Mus musculus with 44 samples.

Results

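The insulin-like growth factor (IGF) genes Igf1, Igf1r, Igf2r, Igfbp2, Igfbp3, Igfbp4, Igfbp5, Igfbp6 and Igfbp7 were followed through the skeletal hierarchy of newborn mice. They were chosen by symbol, as a ligand, 2 receptors and 6 binding proteins, and make up 9 of the 46831 genes counted. All 9 were found in the count table and all 9 passed the filter on low counts in every comparison. Their mRNA was read from input libraries, and their N6-methyladenosine (m6A) signal from the ratio of immunoprecipitated (IP) to input RNA in SLIM-seq, a method that enriches methylated RNA from small samples with an m6A antibody.

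IGF1 and IGF2 are secreted growth factors that drive the growth of cartilage and bone. They act through IGF1R, a receptor tyrosine kinase that signals to PI3K and mTOR, while IGF2R has no kinase and carries IGF2 to lysosomes for breakdown. The IGF binding proteins hold the ligands in serum and in the matrix, where they can block the receptor or keep a local store, and proteases such as PAPP-A release the ligand again. METTL3 is the catalytic subunit of the complex that writes m6A on mRNA.

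The data comprise 44 libraries in 22 groups of 2. Of the 32 WT libraries, 16 are input and 16 IP, from SSC (skeletal stem cells), pre-BCSP and BCSP (bone, cartilage and stromal progenitors), PCP (pro-chondrogenic progenitors), THY, BLSP (B-cell lymphocyte stromal progenitors), 6C3 and HEC (hepatic leukemia factor expressing cells), each sorted from the epiphysis of C57BL/6J mice at postnatal day 3. The other 12, labelled Mettl3cko, are input and IP of SSC, pre-BCSP and BCSP. By the study's methods the knockout animals are Mettl3 fl/fl with Col2a1-Cre, so that deletion is limited to cells in which the Col2a1 promoter has been active, and the controls are Mettl3 fl/fl without Cre. Animals of either sex from several litters were used, and the 2 replicates are independent experiments. Although a label field gives all 44 libraries as wild type, the titles of these 12 name them as Mettl3cko, and the titles were followed. SSC, pre-BCSP and BCSP are called stem and progenitor populations here and the other 5 downstream populations.

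WT input libraries held 19795666 to 44046651 counts and WT IP libraries 16480027 to 35856651. The log2 values of 2 replicates correlated across genes at 0.967 to 0.989 in WT input, 0.901 to 0.962 in WT IP, 0.943 to 0.965 in Mettl3cko input and only 0.627 to 0.735 in Mettl3cko IP. Thy1 mRNA lay at 21.5 to 33.3 CPM (read counts scaled to a common library size) in THY, at 17.3 to 30.4 CPM in PCP and BLSP and at no more than 0.42 CPM in the other 5 populations. Enpep, the gene of the 6C3 antigen, was highest in 6C3 and HEC, at 40.5 to 54.5 CPM, against at most 8.07 CPM elsewhere. The summed level of 6 chondrocyte markers was 90328 to 108712 CPM in stem and progenitor libraries and 7312 to 97974 CPM in downstream libraries, and all 6 were higher in the former. The reverse held for 4 of 4 mural markers, at 81.5 to 291 against 520 to 2675 CPM, and for 4 of 4 marrow stroma markers, at 69.3 to 145 against 201 to 2521 CPM. Osteoblast markers summed to 5526 to 11598 against 62366 to 141548 CPM, although 5 of the 6 genes were higher in stem and progenitor populations. None of 5 endothelial markers passed the test. Their sum was 81.8 and 86.0 CPM in PCP and at most 21.3 CPM in any other WT population. These lists move with the same contrast as the IGF genes, and their part in the results below was not tested.

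The letters GGACT, the DNA form of the sequence most often methylated by the METTL3 complex, are shown with 10 bases on either side for each gene that holds them. They give a reader the places in each transcript nearest to the end of the stop codon, the region where m6A is known to be most frequent. Capitals mark the motif, and the letters come from the transcript of the gene with the longest sequence in GENCODE vM21, on GRCm38, read on the sense strand.
Igf1r: tctacgagacGGACTactaccggaa
Igf2r: agagtataaaGGACTctcagagcgg
Igfbp5: acgtggatggGGACTttcagtgcca
Igf1: gacaagctaaGGACTcagtctcccc
Igfbp7: gggtgcagccGGACTgctgctcctg
Igfbp6: gtgcgccccaGGACTgcagtgccaa
Igfbp4: agcaggtgggGGACTcagtgccccc
Igfbp3: gagcagcatcGGACTccacgttcag

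The Igf1r window lies at chr7:68214940-68214964 (+) and the Igf2r window at chr17:12685680-12685704 (-), in coding sequence 615 and 590 bases before the end of the stop codon. Igfbp5 has it at chr1:72862405-72862429 (-), also coding and only 42 bases before that end. For Igf1 the nearest copy is at chr10:87932311-87932335 (+), 1587 bases into the 3′ UTR. In Igfbp7 it is coding, 899 bases before the end at chr5:77407958-77407982 (-), and in Igfbp6 coding, 473 bases before it at chr15:102144781-102144805 (+). In Igfbp4 it lies 19 bases into the 3′ UTR at chr11:99051588-99051612 (+), and in Igfbp3 747 bases into it at chr11:7206760-7206784 (-). The Igfbp2 transcript, at 1307 bases, does not hold these letters. Searched on the sense strand alone, they occur 14 times in Igf1r and 12 times in Igf2r. Igfbp5 holds 7, Igfbp4 6, Igfbp6 3, Igf1 2, and Igfbp3 and Igfbp7 1 each. Per kilobase of transcript the order is another, with 2.70 copies in Igfbp6, 1.57 in Igfbp4, 1.35 in Igf2r, 1.23 in Igf1r, 1.17 in Igfbp5, 0.83 in Igfbp7, 0.41 in Igfbp3 and 0.28 in Igf1. The median over the longest transcripts of 21877 protein-coding genes is 1.01 copies per kilobase, and 87.6% of them hold at least 1 copy. Counts per gene cannot place a methylated base, so these windows are a description of the transcripts and not measured sites.

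In the mean over the WT populations of each class, Igf1 and all 6 Igfbp genes were lower in stem and progenitor than in downstream populations, by 2.25-fold (Igfbp3) to 12.1-fold (Igfbp5), while Igf1r and Igf2r were higher there, by 1.99-fold and 1.40-fold. All 9 genes differed among the populations at an adjusted p under 0.05, as did 40.1% of the genes tested. Between the 2 classes all 9 differed as well, 2 higher and 7 lower in stem and progenitor populations, beside 51.4% of all genes (23.1% higher and 28.3% lower). The median log2 fold change of the 9 was -1.88 and that of all genes -0.11.

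Igf1, the ligand, had the widest range. It was measured at 12.1 and 15.3 CPM in the 2 SSC libraries, 53.4 and 82.1 in pre-BCSP, 25.4 and 26.3 in BCSP, 457 and 293 in PCP, 662 and 603 in THY, 426 and 413 in BLSP, 315 and 234 in 6C3 and 114 and 125 in HEC. The mean in THY was 46.1-fold that in SSC, and the lowest downstream library exceeded the highest stem and progenitor library. In the order of the means, BLSP, PCP and 6C3 overlapped their neighbours, and at the other 5 steps the replicates did not overlap. The log2 fold change of stem and progenitor over downstream was -3.54 ± 0.15 (SE, adjusted p = 6.95e-11).

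Igf1r, the receptor kinase, was higher in stem and progenitor populations and varied less, with a 3.01-fold span of population means. Its 2 values were 63.8 and 93.1 CPM in SSC, 80.8 and 77.0 in pre-BCSP, 105 and 99.1 in BCSP, 46.2 and 43.1 in PCP, 27.5 and 40.1 in THY, 42.7 and 37.1 in BLSP, 55.7 and 33.7 in 6C3 and 44.7 and 38.9 in HEC. Every stem and progenitor library lay above every downstream library, and each of the 5 downstream populations overlapped the next in the order. The log2 fold change was 0.99 ± 0.13 (adjusted p = 9.52e-06).

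Igf2r, the receptor that clears IGF2, varied least, with a 2.61-fold span. BCSP stood above the rest at 191 and 195 CPM, while the other 14 libraries ran from 58.4 to 144 CPM and the remaining 6 steps of the order overlapped. Its log2 fold change of 0.49 ± 0.14 (adjusted p = 0.00968) came to 0.37 (adjusted p = 0.0528) without the second SSC input library. Reads of Airn, an antisense gene at the same locus, numbered 21.8% to 53.7% of those of Igf2r, and the sources used here do not give the strand setting of the counts. The gene models of the pair overlap only from 12741311 to 12769664 on chromosome 17, where the strand of a read is not known. The rest of Igf2r, down to 12682406, lies outside Airn. Igf1os, the antisense gene of Igf1, held at most 3.38% of the Igf1 count.

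**Figure D1:**
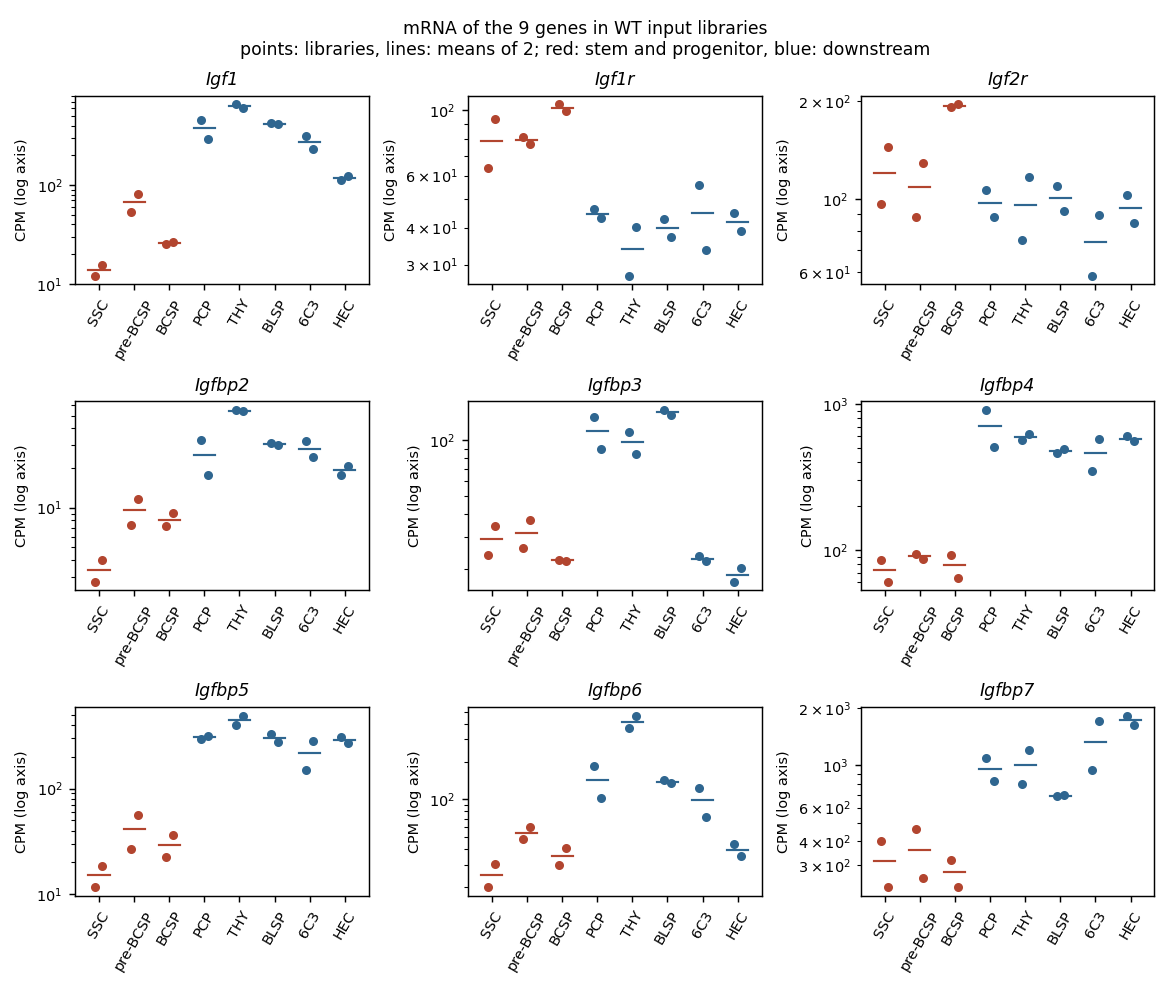
mRNA of the 9 genes in the 16 WT input libraries, as CPM scaled by the trimmed mean of M-values, on log axes by population. Points are libraries and lines the means of 2, and the Igf1 points run from 12.1 CPM in SSC to 662 CPM in THY while the Igf1r points fall from 105 CPM in BCSP to 27.5 CPM in THY.

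Among the binding proteins, Igfbp5, which is stored in bone matrix, and Igfbp4, which blocks IGF action until PAPP-A cleaves it, had the largest differences between the classes. Igfbp5 rose from 11.6 and 18.6 CPM in SSC, 26.6 and 55.8 in pre-BCSP and 22.7 and 36.1 in BCSP to 294 and 314 in PCP, 397 and 487 in THY, 331 and 277 in BLSP, 151 and 280 in 6C3 and 304 and 272 in HEC. No downstream library overlapped a stem and progenitor library, and THY stood apart from the next population. The log2 fold change was -3.60 ± 0.22 (adjusted p = 2.47e-09). For Igfbp4 the 6 stem and progenitor libraries lay between 60.8 and 94.5 CPM and the 10 downstream libraries between 350 and 909 CPM, with medians of 86.0 and 562 CPM and a log2 fold change of -2.88 ± 0.16 (adjusted p = 1.35e-09). PCP was highest in the mean, and PCP, THY and HEC overlapped.

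Igfbp2, which binds both ligands, was measured at 2.75 and 4.0 CPM in SSC, 7.36 and 11.7 in pre-BCSP, 7.2 and 9.05 in BCSP, 32.8 and 17.7 in PCP, 55.2 and 54.2 in THY, 30.8 and 29.9 in BLSP, 32.2 and 24.1 in 6C3 and 17.6 and 20.8 in HEC. THY was above all other populations, SSC below them, and the classes did not overlap (log2 fold change -2.29 ± 0.18, adjusted p = 3.37e-08). Igfbp7, a low-affinity binder of IGFs, lay between 228 and 463 CPM in stem and progenitor and between 686 and 1818 CPM in downstream libraries, again without overlap (-1.88 ± 0.19, adjusted p = 5.08e-07). Its highest population was HEC, at 1818 and 1627 CPM, and BLSP was the lowest of the downstream populations.

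Igfbp3 and Igfbp6 divided the downstream populations. Igfbp3, the main serum carrier of IGFs, reached 134 and 90.3 CPM in PCP, 112 and 84.2 in THY and 146 and 138 in BLSP. Its libraries in 6C3 and HEC, at 17.1 to 23.5 CPM, lay within or below the 22.2 to 36.9 CPM of the stem and progenitor libraries. Igfbp6, which prefers IGF2, was highest in THY at 367 and 463 CPM and stood at 44.2 and 35.2 CPM in HEC, within the 19.8 to 59.7 CPM of the stem and progenitor libraries. The fit gave -1.17 ± 0.14 for Igfbp3 (adjusted p = 2.74e-06) and -1.87 ± 0.17 for Igfbp6 (adjusted p = 2.03e-07), with replicates as its only source of error. When the 8 population means were permuted over the 56 splits into 3 and 5, exact two-sided p was 0.286 for Igfbp3 and 0.0893 for Igfbp6, and 0.0179, the smallest these splits can give, for the other 7 genes.

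In all, 6 of the 9 genes had no overlap between the libraries of the classes. Of these Igf1r was higher in stem and progenitor populations, as were 9.05% of all genes tested, and Igf1, Igfbp2, Igfbp4, Igfbp5 and Igfbp7 were lower, as were 7.63%. In bulk libraries such as these, fewer cells of a type and less RNA per cell cannot be told apart.

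Each population was also set against the mean of the other 7, which gave 55 calls among 72 pairs of gene and population at an adjusted p under 0.05. In SSC 1 gene was higher and 7 were lower, beside 11.9% and 11.8% of all genes. In pre-BCSP 1 was higher and 6 lower (9.59% and 8.38% of all genes), and in BCSP 2 and 7 (12.7% and 12.8%). PCP had 6 genes higher and none lower, beside 12.9% of all genes higher, THY 7 higher and 1 lower (10.8% and 5.75%), and BLSP 6 higher and none lower (9.39% higher). In 6C3, 5 were higher and only Igfbp3 lower, at -1.07 ± 0.21, beside 8.31% and 3.85% of all genes. HEC was mixed, with Igfbp4 (1.28 ± 0.19), Igfbp5 (1.44 ± 0.24) and Igfbp7 (1.54 ± 0.22) higher and Igfbp3 (-1.40 ± 0.21) and Igfbp6 (-1.12 ± 0.25) lower, beside 6.37% and 2.88%. The value of Igf1 in HEC was -0.12 ± 0.19 (adjusted p = 0.798).

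Levels of different genes were compared per kilobase of exon. The 6 Igfbp genes summed to a median of 320 CPM per kilobase in stem and progenitor libraries (range 248 to 464) and of 1317 CPM per kilobase downstream (range 912 to 1746), without overlap. Igfbp7 made up most of the sum in every library, with a median share of 78.8% in the former (range 67.8% to 87.3%) and 67.4% in the latter (range 52.9% to 86.1%). The make-up differed between downstream populations. In HEC the mean share of Igfbp7 was 86.0%, while in THY it was 55.9% and Igfbp6 held 25.5%. Igfbp4 was next in PCP at 13.3%, and Igfbp2 held at most 2.38% of the sum in any library.

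**Figure D2:**
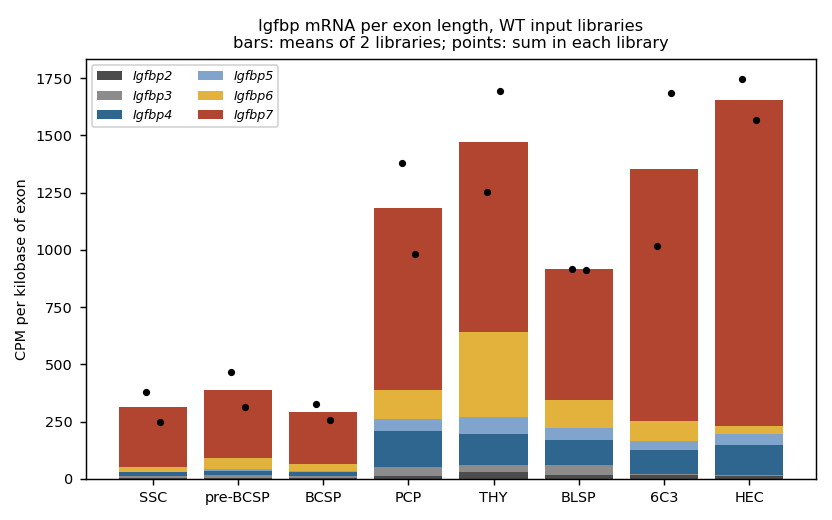
Summed mRNA of the 6 Igfbp genes in the 8 WT populations, in CPM per kilobase of exon. Stacked bars are means of 2 libraries, points are the sum in each library, and the downstream sums of 912 to 1746 all lie above the stem and progenitor sums of 248 to 464.

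As a description over 8 population means of log2 CPM, which share 1 scaling, Igf1, Igfbp2, Igfbp4 and Igfbp5 correlated pairwise at a Pearson r of 0.891 to 0.980, and Igf1r with Igfbp4 at -0.949. The 2 genes with the most similar pattern, among 8311 with a mean of at least 10 CPM, were Lamb1 (r = 0.990) and Ccna2 (0.989) for Igf1, Tnnt3 (0.996) and Unc5c (0.995) for Igf1r, and Ppp4r2 and Uqcr10 (both 0.960) for Igf2r. For the binding proteins they were Trim16 (0.991) and Col5a3 (0.987) for Igfbp2, Epha3 (0.987) and Cnrip1 (0.970) for Igfbp3, and Epn1 and Ankib1 (both 0.993) for Igfbp4. Map4 and Limk1 (both 0.993) were most like Igfbp5, Naaa (0.978) and Fbln2 (0.969) most like Igfbp6, and Wasf2 (0.996) and Klf3 (0.993) most like Igfbp7. With so few points and so many candidates such values are descriptive only.

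Of 39 other genes of the IGF pathway, 37 could be tested between the classes, and 15 were higher and 9 lower in stem and progenitor populations, with a median log2 fold change of 0.22, beside the 23.1% higher, 28.3% lower and median of -0.11 of all genes. Igf2, the other ligand, moved like Igf1, with 19.3 to 34.5 CPM in stem and progenitor libraries and 95.0 to 251 CPM downstream (log2 fold change -2.85 ± 0.17, adjusted p = 3.06e-09). Insr, the related insulin receptor, moved like Igf1r (0.68 ± 0.19, adjusted p = 0.00638). Stc2, a secreted inhibitor of PAPP-A, ran from 79.5 to 190 CPM against 3.11 to 13.3 CPM (4.0 ± 0.17, adjusted p = 6.06e-11), and Pappa itself from 24.5 to 46.1 against 5.09 to 20.6 CPM (1.77 ± 0.21, adjusted p = 3.06e-06). Igfals, the acid-labile subunit that joins IGF and IGFBP3 in serum, was higher by 2.15 ± 0.28 and the adaptor Irs1 by 1.11 ± 0.21. Lower were the protease Htra1 (-0.82 ± 0.12) and the PI3K subunits Pik3cb (-1.25 ± 0.32), Pik3r2 (-0.78 ± 0.15) and Pik3r1 (-0.65 ± 0.13). Igfbp1 and Igfbpl1 did not pass the filter on low counts.

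**Figure D3:**
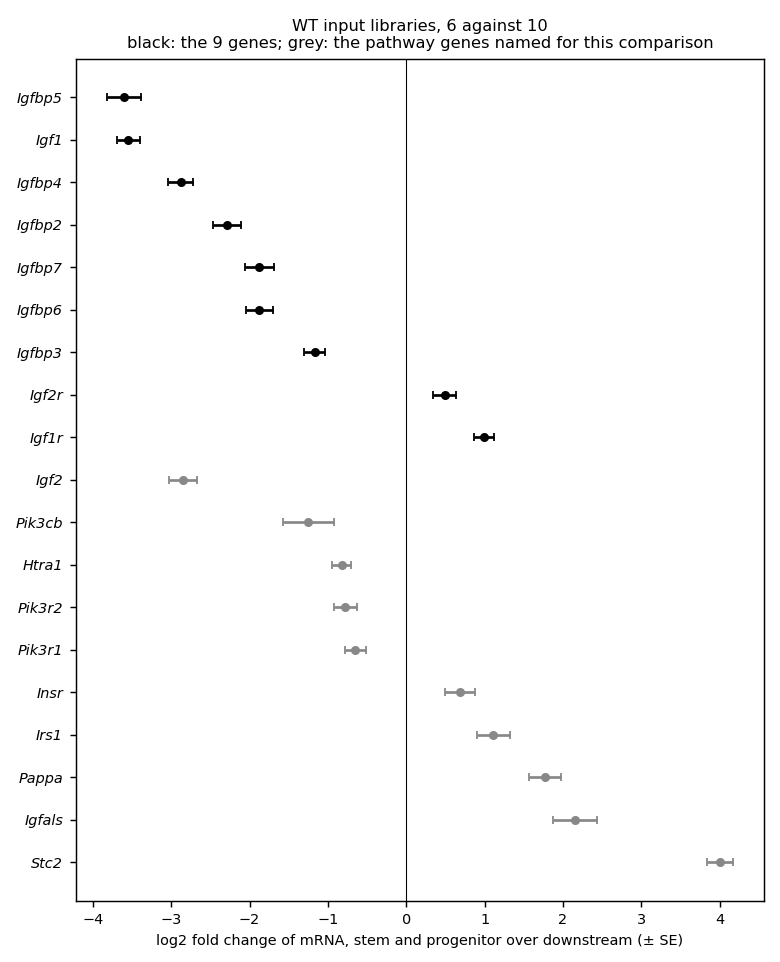
Log2 fold change of mRNA, stem and progenitor over downstream, in WT input libraries (6 against 10), with standard errors. The 9 genes are in black, from -3.60 for Igfbp5 to 0.99 for Igf1r, and the pathway genes named for this comparison in grey, all past an adjusted p of 0.05, from -2.85 for Igf2 to 4.0 for Stc2.

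The ratio of IP to input was then compared within each WT population. A gene was taken as m6A-tagged at a log2 ratio above 1 with an unadjusted p under 0.05. The receptors carried most of the signal: of 18 tagged pairs of gene and population among 72, Igf1r gave 7, Igf2r 7, Igfbp5 3 and Igf1 1. The longest transcripts of these tagged genes had 6006 to 11409 bases and those of the other members 1112 to 3831. The part of transcript length in the ratios was not tested. In all, 37 of the 72 log2 ratios were above 0 and 35 below. The share of all genes tagged was 10.4% in SSC, 12% in pre-BCSP, 6.67% in BCSP, 10.6% in PCP, 12.4% in both THY and BLSP, 14.5% in 6C3 and 13.5% in HEC.

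Igf1r was tagged everywhere but in 6C3, where its log2 ratio was 0.94 ± 0.30 (unadjusted p = 0.0152), and its highest ratio was 1.63 ± 0.26 in SSC (adjusted p = 0.0315). The 16 pairs of IP and input libraries gave 0.53 to 1.82 with a median of 1.30, all above 0. The weaker of these calls moved with the settings. In 6C3 the ratio of 1.01 with DESeq2's test or size factors was tagged, while THY was not at 0.93 with library size alone, 0.90 with no filter and 0.94 in 1 fit of the 32 WT libraries, nor PCP at 0.99 with no filter. With single libraries left out, the ratio was 0.56 in PCP and 0.91 in HEC without the first IP library, in THY it was 0.83 without the first input and 0.82 without the second IP library, and in 6C3 it came to 1.30 without the first input and 1.04 without the first IP library.

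Igf2r was tagged everywhere but in BCSP, the population with the most Igf2r mRNA, where the ratio was 0.43 ± 0.26 (unadjusted p = 0.155) and the 2 pairs of libraries gave 0.08 and 0.64. The other 14 pairs gave 0.88 to 1.86, and the highest ratio was 1.60 ± 0.28 in 6C3 (adjusted p = 0.00687). Its ratio fell under the threshold at 0.99 in PCP without the first IP library and at 0.96 in BLSP without either the second input or the second IP library.

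Igfbp5 was the only binding protein with tagged populations. It was tagged in pre-BCSP (1.30 ± 0.38), BCSP (1.64 ± 0.31) and 6C3 (1.19 ± 0.34), and its value in SSC, 1.00 ± 0.39, fell just short of the threshold, which it passed at 1.01 with DESeq2's test or size factors and at 1.02 with library size alone. Paired by replicate number, SSC gave 1.03 ± 0.41 (unadjusted p = 0.0353) and the tagged pairs numbered 19, beside 9.07% of all genes in SSC, 6.33% in BCSP, the lowest share, and 13.7% in 6C3, the highest. In the other 4 populations the ratio was 0.53 to 0.68. The call was lost at 0.85 in pre-BCSP without the first input library, and in 6C3 at 0.75 without the first input and at 0.96 without the first IP library. Igf1 had log2 ratios of 0.40 to 1.33, all above 0, and was tagged in SSC at 1.33 ± 0.40, a call that did not hold without the first input (1.12, unadjusted p = 0.112), the second input (1.5, unadjusted p = 0.0507) or the second IP library (0.87).

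Igfbp2, Igfbp3 and Igfbp4 were below 0 in all 8 populations. For Igfbp2 the ratio was under -1 at an unadjusted p under 0.05 in SSC, pre-BCSP, BLSP and 6C3, as was so for 13.9%, 14.8%, 14.8% and 17% of all genes. For Igfbp3 this held in SSC and in HEC, where 14.2% of all genes were that low. Igfbp3 ran from -1.98 ± 0.59 in SSC to -0.46 ± 0.40 in BCSP, and Igfbp4 from -1.58 ± 0.64 in SSC to -0.02 ± 0.30 in 6C3. The Igfbp2 ratio in stem and progenitor populations rests on few counts, since its IP libraries held 5 and 0 counts in SSC and 1 and 139 in BCSP. Igfbp6 lay at -0.56 to 0.15 and passed no test in either direction, and Igfbp7 at -0.91 to 0.34.

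**Figure D4:**
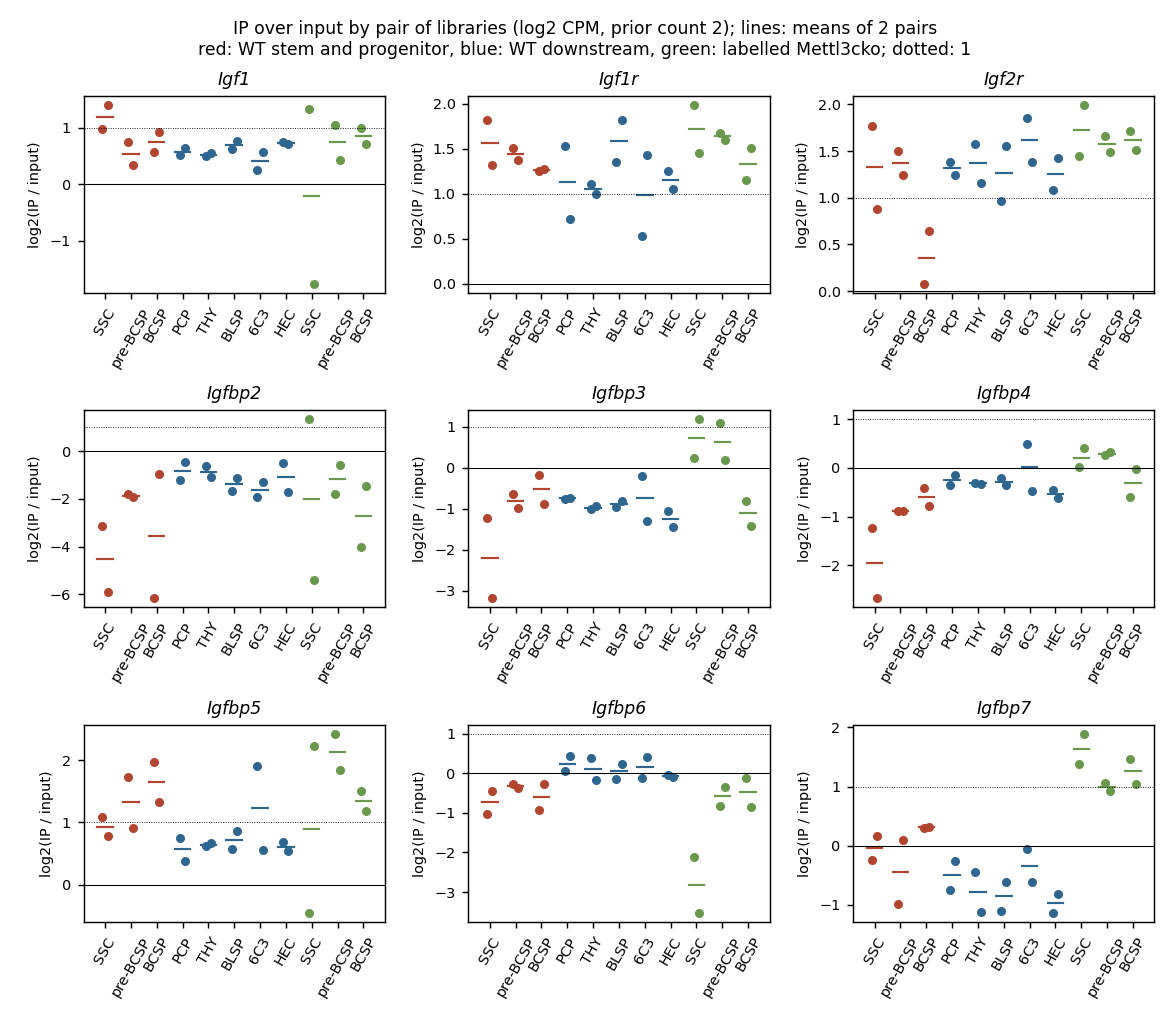
Log2 ratio of IP over input in each pair of libraries of the 9 genes, from log2 CPM with a prior count of 2, for 8 WT populations and the 3 labelled Mettl3cko. Points are pairs of libraries, lines means of 2 and the dotted line a ratio of 1 on the log2 scale, above which most Igf1r and Igf2r points lie, while all WT points of Igfbp2 and Igfbp3 lie below 0.

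Whether the ratio itself differed between the classes was tested over the 32 WT libraries. Igfbp7 was called, with a ratio higher in stem and progenitor populations by 0.81 ± 0.22 on the log2 scale (adjusted p = 0.0258), as was so for 3.06% of all genes. Its pairs of libraries gave -0.24 and 0.16 in SSC, -0.99 and 0.10 in pre-BCSP and 0.30 and 0.32 in BCSP, against -0.76 and -0.25 in PCP, -0.44 and -1.13 in THY, -1.10 and -0.62 in BLSP, -0.06 and -0.61 in 6C3 and -1.14 and -0.81 in HEC. The BCSP pairs lay above all downstream pairs, while the first SSC pair and the first pre-BCSP pair lay among them. The input level is the denominator of this ratio, and Igfbp7 input mRNA was lower in stem and progenitor populations (log2 fold change -1.88). Its IP level was lower there too, at a median of 280 against 669 CPM, and the part of these levels in the ratio was not tested. Mitochondrial genes made up 1.56% to 2.92% of the counts of stem and progenitor IP libraries and 4.53% to 9.10% of those of downstream IP libraries, without overlap, and the part of this difference in the ratios was not tested. With DESeq2's size factors the difference was 0.65 and did not pass (adjusted p = 0.0862). Adjusted p was also over 0.05, with differences of 0.62 to 0.78, when 1 of 9 libraries was left out: the second input of SSC, pre-BCSP or BCSP, the second IP of SSC, pre-BCSP or 6C3, the first IP of BCSP, or either IP of HEC.

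IP and input were also paired by replicate number, since the study divided each batch of sorted cells. That equal numbers mark the same batch in both is not stated. With this pairing 5 genes passed, 3 of them higher, beside 4.47% of all genes, and 2 lower, beside 2.47%. Igfbp7 (0.83 ± 0.14, adjusted p = 8.08e-06), Igfbp5 (0.74 ± 0.16, adjusted p = 0.000427) and Igf1 (0.44 ± 0.14, adjusted p = 0.0408) had higher ratios in stem and progenitor populations, and Igfbp2 (-1.92 ± 0.45, adjusted p = 0.00178) and Igfbp4 (-0.67 ± 0.15, adjusted p = 0.00111) lower ones. Without the pairing the values of these 4 further genes were 0.70 ± 0.22 for Igfbp5 (adjusted p = 0.0647), 0.45 ± 0.19 for Igf1, -1.53 ± 0.61 for Igfbp2 and -0.56 ± 0.28 for Igfbp4. The receptors were not called in either fit, at 0.42 ± 0.21 for Igf1r and -0.14 ± 0.20 for Igf2r without pairing. Igfbp6 alone had pairs that did not overlap, -1.04 to -0.27 in stem and progenitor populations and -0.18 to 0.43 downstream, as had 1.08% of all genes in that direction, but its difference of -0.38 ± 0.26 did not pass (adjusted p = 0.606, and 0.091 when paired).

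For the 12 libraries labelled Mettl3cko, Mettl3 itself was examined first. Its input level was 17.0 and 18.8 CPM in SSC, 23 and 23.5 in pre-BCSP and 16.7 and 18.4 in BCSP. The WT libraries held 15.8 and 15.9, 12.5 and 16.6, and 18.6 and 20.3 CPM in the same order. Both libraries labelled Mettl3cko thus lay above both WT libraries in SSC and pre-BCSP and below both in BCSP. The counts therefore do not show lower Mettl3 mRNA in SSC or pre-BCSP. Which exons are deleted is not given in the sources used here. Reads were counted over whole genes, so a loss of single exons was not tested and the labels could not be checked in this way. The study itself reports the deletion by qRT-PCR and, in SSC, by Western blot. It also reports lower m6A in knockout cells by dot blot, and by SLIM-seq in SSC, pre-BCSP and BCSP.

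mRNA of the 9 genes was compared between libraries labelled Mettl3cko and WT within each of the 3 populations, with a change called at a log2 fold change beyond 0.5 and an unadjusted p under 0.05. Of 27 pairs of gene and population 6 were called, 4 higher and 2 lower. SSC had 1, lower, beside 7.07% of all genes, pre-BCSP 1, higher, beside 3.88%, and BCSP 3 higher and 1 lower, beside 7.22% and 5.72%. At an adjusted p under 0.05, none of the 27 and none of all genes (0%) passed edgeR's test in any population.

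BCSP held most of the calls. Igf1 there was 60.4 and 72.2 CPM in libraries labelled Mettl3cko against 25.4 and 26.3 in WT (1.36 ± 0.23, unadjusted p = 0.000472, adjusted p = 0.189). Igfbp3 was 42.1 and 81 against 22.4 and 22.2 CPM (1.46 ± 0.33, adjusted p = 0.219), and Igfbp6 45.5 and 120 against 30.0 and 41.2 CPM (1.21 ± 0.43, adjusted p = 0.308). Igfbp7 was lower, at 177 and 167 against 320 and 228 CPM (-0.67 ± 0.23, adjusted p = 0.306). Libraries of the genotypes did not overlap for these 4 genes in BCSP, as was so for 45.6% of all genes in either direction. In the same BCSP libraries the 4 mural markers summed to 239 and 319 CPM against 81.5 and 149 CPM in WT, and the 6 osteoblast markers to 13253 and 18938 against 9229 and 10767 CPM. Most of the osteoblast sum was Col1a1, at 10962 to 16902 against 6496 to 7220 CPM. For Runx2, Sp7, Alpl, Ibsp and Bglap the libraries of the genotypes overlapped. Neither marker sum overlapped between the genotypes, and the part of these sums in the calls was not tested. Leaving out 1 library ended 2 of these calls: Igfbp6 came to 0.37 without the second Mettl3cko and 1.00 without the first WT library, and Igfbp7 to -0.61 and -0.41.

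In SSC, Igfbp6 was lower, at 2.84 and 11.3 CPM against 19.8 and 30.2 CPM in WT (-1.81 ± 0.61, adjusted p = 0.246), and came to -1.45 (unadjusted p = 0.102) without the second WT library. In pre-BCSP, Igfbp2 was higher, at 17.4 and 21.6 CPM against 7.36 and 11.7 CPM (1.05 ± 0.38, adjusted p = 0.569), and came to 0.87 without the second Mettl3cko or 0.73 without the first WT library, short of the threshold in p. Igf1, not called in SSC or pre-BCSP, lay at 10.9 and 8.14 CPM in SSC, below both WT libraries, and at 91.9 and 119 CPM in pre-BCSP, above them, while 47.8% and 41.6% of all genes had no overlap between genotypes in these populations. The test that its change differs between populations gave an unadjusted p of 0.00151 and an adjusted p of 0.941, and for Igfbp6 an unadjusted p of 0.0127 and the same adjusted p.

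Averaged over the 3 populations, none of the 9 genes passed an adjusted p of 0.05 in edgeR, which 6.48% of all genes did, and 3 passed unadjusted. These were Igf1 (0.50 ± 0.16, adjusted p = 0.0793), Igfbp3 (0.90 ± 0.31, adjusted p = 0.113) and Igfbp7 (-0.68 ± 0.23, adjusted p = 0.108). DESeq2 called the same 3, at adjusted p of 0.0211, 0.0262 and 0.0292. The share of all genes that passed unadjusted, or in DESeq2, is not given, so these 3 cannot be set against it. The mean of Igfbp7 was below that of WT in all 3 populations, with libraries that did not overlap in pre-BCSP and BCSP. Igfbp3 went the other way in SSC, with a mean of 23.1 against 29.1 CPM in WT. In pre-BCSP Igfbp3 overlapped WT, at 33.2 and 149 against 26.1 and 36.9 CPM. The receptors were not called, at -0.03 ± 0.21 for Igf1r and 0.17 ± 0.16 for Igf2r. Igf1r lay between 47.1 and 121 CPM in libraries labelled Mettl3cko and between 63.8 and 105 CPM in WT. Chondrocyte markers summed to 56843 and 65199 CPM in the pre-BCSP libraries labelled Mettl3cko against 92983 and 96471 CPM in WT, without overlap, and their part in these values was not tested.

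Of the 39 further pathway genes, 38 were tested in this average and 2 were higher at an adjusted p under 0.05: Igfals (1.27 ± 0.30, adjusted p = 0.0302) and the GTPase Rheb, which activates mTOR (0.56 ± 0.14, adjusted p = 0.0380). Igfals ran from 9.02 to 19.9 CPM in libraries labelled Mettl3cko and from 3.87 to 9.41 CPM in WT. Igf2 was at -0.78 ± 0.25 (adjusted p = 0.0870) and Insr at -0.24 ± 0.32. Of all genes 3.75% were higher and 2.72% lower. None of the list was called lower in edgeR, where 13 of the 38 passed unadjusted, and 5 of them passed an adjusted p under 0.05 in DESeq2. Shares of all genes under these looser rules are not given, so the 13 and the 5 cannot be set against them. Leaving out any 1 of 12 libraries gave 0 to 7 calls, with 0 without the first Mettl3cko BCSP, the first WT BCSP, the first WT pre-BCSP or either WT SSC library, 1 without the second Mettl3cko BCSP, either Mettl3cko SSC, the second WT BCSP or the second WT pre-BCSP library, and 7 without the second Mettl3cko pre-BCSP library.

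**Figure D5:**
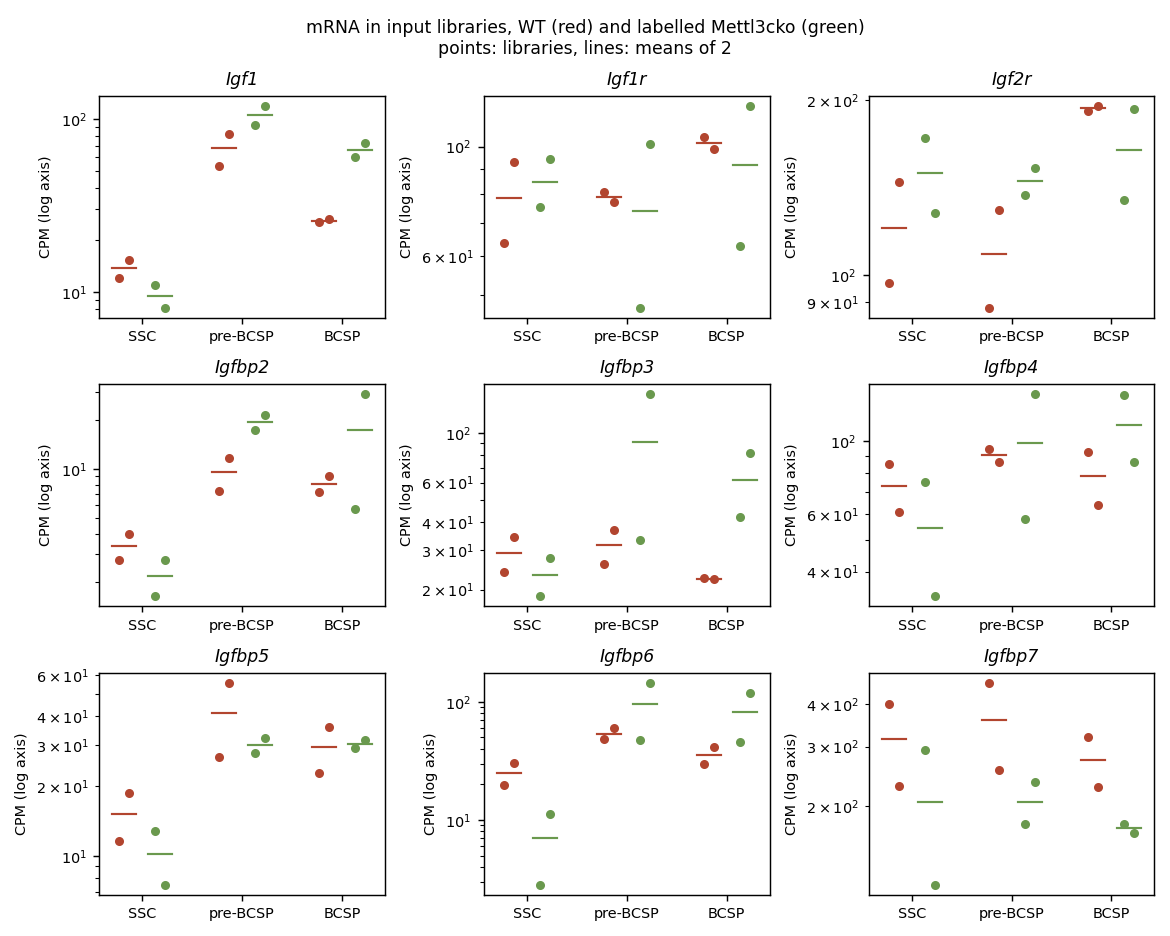
mRNA of the 9 genes in input libraries of SSC, pre-BCSP and BCSP, WT in red and labelled Mettl3cko in green, as CPM on log axes. Points are libraries and lines means of 2, with Igf1 in BCSP at 60.4 and 72.2 against 25.4 and 26.3 CPM and Igfbp7 lower in every population in the mean.

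The IP to input ratio was compared between genotypes in the same way. At an unadjusted p under 0.05, 5 of 27 ratios were called, all higher in libraries labelled Mettl3cko: Igfbp7 in all 3 populations, Igfbp3 in SSC and Igf2r in BCSP. At an adjusted p under 0.05 none of the 27 and none of all genes (0%) passed in edgeR. Of all genes, 14.5% were called in SSC, 11.9% in pre-BCSP and 10.3% in BCSP, and 3.26%, 2.06% and 2.49% were higher. The median log2 difference over all genes was -0.16 in SSC, -0.26 in pre-BCSP and -0.10 in BCSP, so the 5 called ratios moved against it. Counts were scaled between libraries, so these ratios are relative, and a change in m6A shared by all genes would be largely scaled out.

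Igfbp7 was the member with the steadiest difference. Its log2 ratio was 1.39 and 1.90 in SSC, 1.06 and 0.92 in pre-BCSP and 1.47 and 1.04 in BCSP of libraries labelled Mettl3cko, while the 6 WT pairs gave -0.99 to 0.32. No pair of one genotype reached the other, which held in that direction for 1.5% of all genes and for no other of the 9. The differences were 1.66 ± 0.71 in SSC (unadjusted p = 0.0499, adjusted p = 0.344), 1.41 ± 0.44 in pre-BCSP (0.0143 and 0.271) and 0.97 ± 0.39 in BCSP (0.0389 and 0.465). Paired by replicate number they were 1.71 ± 0.35, 1.36 ± 0.40 and 0.94 ± 0.24. Unpaired, these calls rested on single libraries. The SSC value was not called with DESeq2's test (1.66, unadjusted p = 0.0527) or with library size alone (1.48, unadjusted p = 0.0669), nor, at 1.13 to 1.89, without the second Mettl3cko input, the first Mettl3cko IP, the first WT input or either WT IP library. The BCSP value was not called, at 0.68 to 1.04, without either Mettl3cko input, the first Mettl3cko IP, the first WT input or the second WT IP library, nor the pre-BCSP value, at 0.94, without the first WT input library. The input level is the denominator of this ratio, and the log2 fold change of Igfbp7 input mRNA was -0.62 ± 0.42 in SSC, -0.78 ± 0.33 in pre-BCSP and -0.67 ± 0.23 in BCSP.

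Igf2r had a ratio of 1.72 and 1.51 in BCSP of libraries labelled Mettl3cko, near its values elsewhere, against the 0.08 and 0.64 of WT BCSP (1.2 ± 0.39, unadjusted p = 0.015, adjusted p = 0.391). It came to 0.99 without the first Mettl3cko input and to 0.92 without the first WT IP library, with unadjusted p of 0.0542 and 0.052. Igfbp3 in SSC was 0.25 and 1.18 against -1.23 and -3.18 in WT (2.97 ± 1.08, unadjusted p = 0.0276, adjusted p = 0.276). That call was not made in the paired fit (2.96 ± 1.22, unadjusted p = 0.0501), nor without either input library of either genotype or the second WT IP library, at 2.42 to 3.30. Igf1r was not called in any population, with 1.15 to 1.99 against 1.25 to 1.81 in WT and differences of 0.10 to 0.21.

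In the paired fit 7 ratios were called, all higher in libraries labelled Mettl3cko, as were 1.94% of all genes in SSC, 1.82% in pre-BCSP and 2.33% in BCSP. Beside Igfbp7 in all 3 populations and Igf2r in BCSP (1.25 ± 0.27), these were Igfbp4 in SSC (2.2 ± 0.79, unadjusted p = 0.0311) and in pre-BCSP (1.11 ± 0.29, unadjusted p = 0.0127) and Igfbp3 in pre-BCSP (1.36 ± 0.47, unadjusted p = 0.0336). None of the 7 passed an adjusted p of 0.05. Igfbp2, at 4.73 ± 3.40, 0.82 ± 1.07 and 0.14 ± 2.70 in the unpaired fits, could not be resolved at its counts.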

How the data were processed

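Read counts per gene were deposited by the authors for 44 libraries as whole numbers without normalization. Per the labels and methods they trimmed reads with fastp 0.20.1, aligned them to GRCm38 (mm10) with HISAT2 2.2.1 and counted them with featureCounts 2.0.1. The strand setting is not given in the sources used here. The SLIM-seq protocol, with amplified, transposase-cut cDNA, does not mark strand, while the study's reagent list also names a stranded mRNA kit. The 2 deposited tables of the authors' own comparisons were not used. Of 46959 entries, 128 named 1-Mar or 2-Mar were left out (at most 0.390% of a library's counts). Positions and exon lengths come from GENCODE vM21, which matched 44784 of 46831 symbols.

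Counts were fitted in R 4.3.3 with edgeR 4.0.16 (quasi-likelihood F test, TMM, filterByExpr), with p-values adjusted by Benjamini-Hochberg over all genes of a fit. WT mRNA came from 1 fit of 16 input libraries, IP against input from 4 libraries per population, the WT ratio from 32 libraries, and Mettl3cko against WT from each population apart or from 12 input libraries. Standard errors are the absolute log2 fold change over the square root of F. CPM were scaled over all 44 libraries, with a prior count of 2 on the log2 scale. Replicates measure only the spread between these samples. Alternatives were DESeq2 1.42.0 (test, size factors), library size alone, no filter, the replicate block, single libraries left out, the study's Z-score of DESeq2's Wald statistic and exact permutation. Scripts were tested on simulated data. IP and input share a batch of sorted cells by the study's text; differences between replicates correlated between IP and input at 0.0244 to 0.546 over 11 groups, and between WT and Mettl3cko input at -0.04 to 0.06, so genotypes were not paired.

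The members and lists were chosen with earlier results of these data known. Named were all 9 members and, of the pathway list, Igf2, Insr and the genes with the largest called change, up to 5 per direction between classes and 3 between genotypes, and the 2 most similar genes per member; 1 gene that this rule names is not reported here. Plots used matplotlib 3.10.9 (Python 3.11.15).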

Additional observations from a re-analysis of the deposited data

Results flagged for a closer look

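The IP to input ratio of Igfbp7 differed between the stem and progenitor and the downstream WT populations by 0.81 on the log2 scale, in a test of that difference itself (adjusted p = 0.0258, and 8.08e-06 when IP and input were paired). Replicates within populations are the only source of error in that test. With DESeq2's size factors adjusted p was 0.0862, and exact permutation of the populations on the study's Z-score scale gave p = 0.0536. The Igfbp7 ratio was above 0 in 4 of 6 stem and progenitor pairs of libraries and in 0 of 10 downstream pairs. Igfbp7 input mRNA, the denominator, was lower in stem and progenitor populations (log2 fold change -1.88), and its part in the ratio was not tested.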

How the results depend on the processing

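The differences between the classes in WT mRNA kept their direction in every alternative run, and with 1 library left out the genes called higher numbered 1 to 2 (1 without the second SSC input library) and those called lower 7, against 5 lower by exact permutation. With 2 replicates a group, calls that compare genotypes or IP ratios were less stable. The number of members whose ratio differed between the WT classes was 1, and 0 with DESeq2's size factors, 4 with no filter on low counts and 5 with the replicate block, and leaving out 1 library gave 0 to 4, with 4 without the first SSC IP library, 2 without the first 6C3 input or the second BCSP IP library, and 0 without the second 6C3, SSC or pre-BCSP IP, the first BCSP IP or either HEC IP library. On the study's Z-score scale that ratio changed sign for Igf1 (-0.0735) and Igfbp2 (0.198), and Igfbp7 had an exact permutation p of 0.0536; the cause was not tested. For Mettl3cko against WT mRNA, the 6 calls became 0 with adjusted p-values and 13 with no filter, and 4 to 10 with 1 library left out, 10 without the first Mettl3cko pre-BCSP input library. In the mean of 3 populations 0 members became 3 with DESeq2, 3 with no filter and 1 (Igfbp7) with the replicate block, which pairs no shared animals here, and 0 to 1 with 1 library left out, the 1 being Igfbp3 (1.14) without the first Mettl3cko pre-BCSP or Igfbp7 (-0.95) without the first Mettl3cko SSC library. The 5 calls of the genotype ratio became 0 with adjusted p-values and 3 to 8 with 1 library left out, 8 without the second Mettl3cko SSC IP library and 3 without the first Mettl3cko BCSP input, the second Mettl3cko SSC input, the first WT SSC input or the second WT SSC IP library. Pathway genes called between genotypes went from 2 to 5 with DESeq2, 7 with no filter and 4 with the replicate block, and 0 to 7 with 1 library left out. Shares of all genes are not given for the DESeq2, no-filter and left-out fits or the replicate block of mRNA. Their counts cannot be set against a background. Where a library was left out of the fit of 32, the trend of the full fit was kept. Of 74 member values past an unadjusted p of 0.05, 2 changed sign in some alternative, those named above, and of 79 others 39 did. Depth limits Igfbp2 most, with 0 to 139 IP counts in WT SSC and BCSP.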
